A study of Mus musculus with 4 samples.

Results

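Expression was compared between 2 arrays, stimulated and non-stimulated B lymphocytes of Tilcara mice, out of 4 arrays in the series. The other 2 arrays held wild-type B cells under the same conditions and are set beside the Tilcara values. All 4 samples came from mice on a C57BL/6 background, and the labels describe B220-stained cells sorted from suspensions of spleens, thymi and lymph nodes. Stimulated cells received phorbol 12-myristate 13-acetate (PMA) at 10 ng/mL together with the calcium ionophore A23187 at 1 µM for 4 hours. The labels name the Tilcara line, but the sources used here give neither the gene changed in it nor the age of the mice or their number per array. Total RNA was labelled with biotin and read on Affymetrix arrays, and the deposited values are log2 RMA signals.

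PMA stands in for diacylglycerol, the lipid that the B cell antigen receptor generates through phospholipase C, and it activates protein kinase C and RasGRP exchange factors directly. The ionophore lets calcium into the cytosol, which activates calcineurin and the NFAT factors. Together they bypass the antigen receptor and its proximal kinases and drive the NF-kB, AP-1 and NFAT pathways, which in lymphocytes turn on cytokine genes, growth metabolism and exit from quiescence.

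A gene was read from its brightest probe set with exactly 1 gene symbol, which gave 22180 named genes. Of these, 12456 reached a signal floor of 3.83, which is the median value over the named probe sets, on at least 1 of the 4 arrays and were compared. A difference is the log2 signal of the stimulated minus that of the non-stimulated array, and 1 on this scale is a 2-fold change. With 1 array a group there is no replicate check, so no test was made and nothing below carries an error between mice. As a yardstick, the 2 non-stimulated arrays differed across genotypes with an SD over genes of 0.329, and only 1.08% of genes (135) differed by at least 1 there. Between the 2 stimulated arrays 1.70% of genes (212) did. Across the Tilcara stimulation the SD over genes was 1.08.

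Stimulation of Tilcara B cells went with a broad change in both directions. A difference of 1 or more was reached by 1481 genes upward (11.9%) and by 1783 downward (14.3%). Changes of 4-fold or more numbered 339 and 609, and of 16-fold or more 25 and 46. The other genes moved little, with 50.1% of genes within 0.5 of 0 and a median over all genes of 0.04. The split depends on the scaling: 45.4% of these calls were higher as deposited, 58.9% when each array was centred on its median (2022 higher, 1409 lower, median of all genes 0.24), and 38.4% after cyclic loess between arrays (1220 and 1957, median -0.02).

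**Figure D1:**
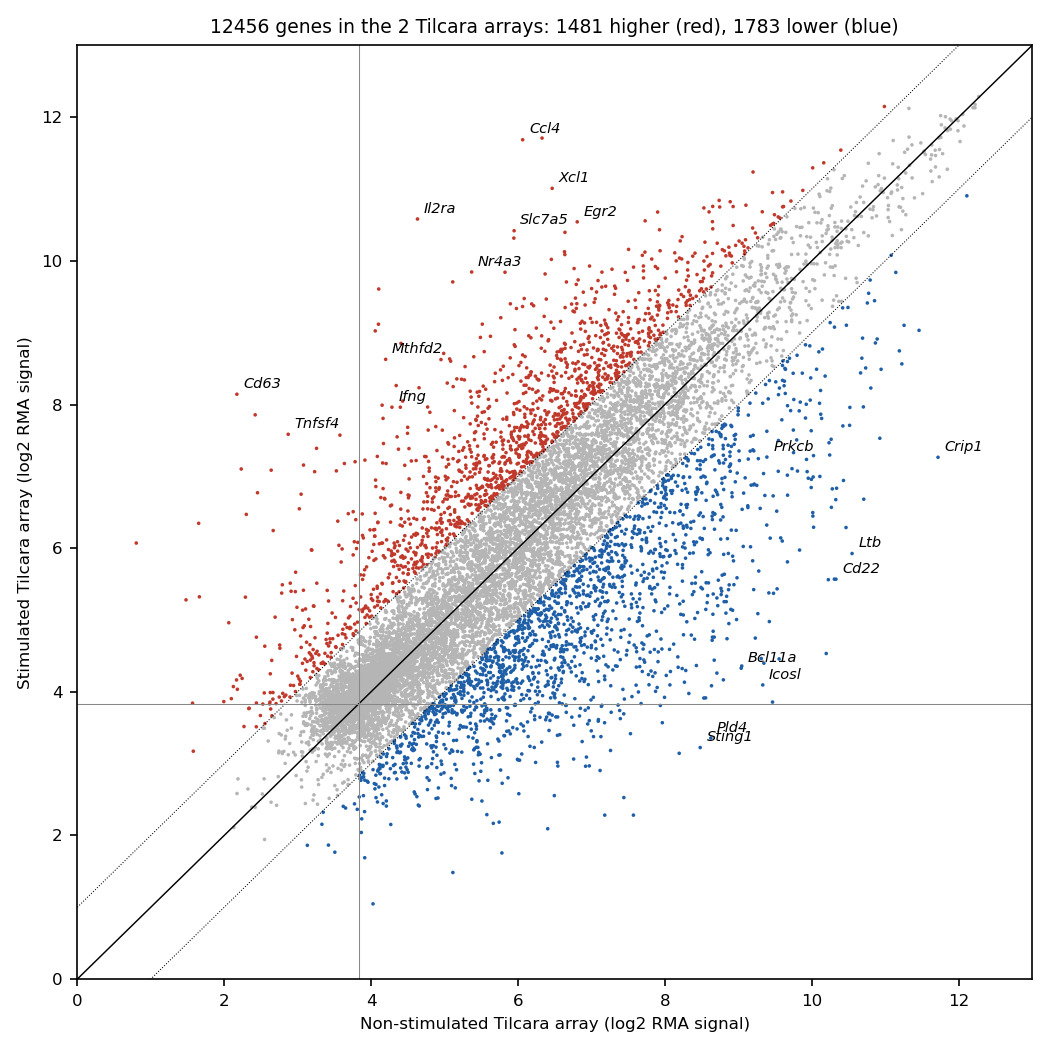
Log2 RMA signal of 12456 genes on the non-stimulated (x axis) and stimulated (y axis) Tilcara array, 1 point a gene. The solid line marks equal signals, dotted lines a difference of 1, grey lines the signal floor of 3.83. Red points (1481) lie 1 or more above and blue points (1783) 1 or more below the line of equal signals.

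The sorted cells carried the markers of the label. All 11 B cell markers measured were above the floor on all 4 arrays. Their signals fell with stimulation: in Tilcara 8 were at least 2-fold lower and 0 higher, with a median of -2.45. Their summed linear signal was 17787 and 6203 in Tilcara, against 18226 and 4763 in wild type. Ighm, the IgM heavy chain (11.85 without and 11.28 with stimulation in Tilcara), and Ebf1, a B lineage factor (9.73 and 9.18), fell least. Of 16 T cell markers, 7 were above the floor in the non-stimulated and 5 in the stimulated Tilcara array, none above 5.26. Their summed linear signal was 222 and 213 in Tilcara, against 328 and 274 in wild type. The 9 mast cell and basophil markers were below the floor on all 4 arrays. Macrophage markers summed to 312 and 466 in Tilcara and 443 and 423 in wild type. The 2 that were at least 2-fold higher in Tilcara were Cd68 (6.05 to 7.44, wild type 6.33 to 7.08) and Hmox1 (5.48 to 6.72, wild type 5.78 to 6.48), and 0 were lower. The defining genes Adgre1 (3.79 and 2.84) and Csf1r (3.60 and 3.94) were near or below the floor in Tilcara. Neutrophil markers summed to 1101 in the non-stimulated wild-type array, 369 in the non-stimulated Tilcara array, and 215 and 174 in the stimulated wild-type and Tilcara arrays. The calprotectin gene S100a8 read 9.004 in non-stimulated wild-type cells, but 3.81, 2.75 and 2.36 in the non-stimulated Tilcara and the stimulated wild-type and Tilcara arrays. NK cell markers summed to 838 and 673 in Tilcara and 791 and 957 in wild type. In the stimulated arrays the brightest of them were Tbx21 (8.26 in Tilcara, 8.96 in wild type) and Ccl5 (7.73 and 8.15). Of the 11 NK cell markers measured, Tbx21 was at least 2-fold higher with stimulation in Tilcara and 6 were lower. Dendritic cell markers summed to 3095 and 1001 in Tilcara and 2787 and 839 in wild type. Of 12 measured, 3 were at least 2-fold lower in Tilcara and 0 higher. The lower ones were Ly6d (11.19 to 8.75, wild type 11.07 to 8.22), Siglech (5.06 to 3.42, wild type 4.93 to 3.06) and Klk1 (6.41 to 2.09, wild type 2.75 to 2.17). The part of such cells in the results was not tested, and in these bulk samples fewer cells of a type and less RNA per cell cannot be told apart.

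Predicted genes, small RNAs, olfactory receptors and immunoglobulin or T cell receptor segments were left out when the largest changes were ranked. Among the genes left, the 6 largest increases were all of secreted or surface molecules. Cd63, a tetraspanin of late endosomes and exosomes, read 2.17 without and 8.14 with stimulation in Tilcara, and 2.32 and 7.35 in wild type, a Tilcara difference of 5.97 (62.7-fold from a level below the floor). Il2ra, the alpha chain that gives the interleukin-2 receptor its high affinity, read 4.63 and 10.58 in Tilcara and 4.57 and 10.68 in wild type, 61.9-fold higher. Plau, the urokinase protease, went from 4.10 to 9.61 and Il1r2, the decoy receptor for interleukin-1, from 2.42 to 7.86. In each of these 4 genes both stimulated arrays were above both non-stimulated ones by more than 5 log2 units. Among the 25 largest increases, 4.00 to 5.97, 11 genes were below the floor without stimulation, so their fold depends on a dim baseline. Plagl1 (0.80 to 6.07) and Emb (3.58 to 7.57) have further probe sets, and the mean over probe sets gave 3.06 and 2.67 in place of 5.27 and 4.00.

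The largest decreases were of genes with signals well above the floor without stimulation. Tmem108 read 9.47 without and 3.86 with stimulation in Tilcara and 9.02 and 5.16 in wild type, a difference of -5.61 (mean over its probe sets -3.82). Pld4, an endolysosomal nuclease, went from 8.63 to 3.36 and Sting1, the adaptor for cyclic dinucleotides, from 8.48 to 3.22. Icosl, the ligand through which B cells engage ICOS on T cells, read 9.33 and 4.10 (wild type 9.16 and 4.29). Ltb, which encodes lymphotoxin beta, read 10.55 and 5.93 (wild type 10.37 and 6.35), and Bcl11a, a B lineage factor, 9.04 and 4.33. The 25 largest decreases spanned -4.44 to -5.61, and 6 of them ended below the floor. All 25 largest increases and all 25 largest decreases in Tilcara were at least 2-fold in the same direction in wild type.

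**Figure D2:**
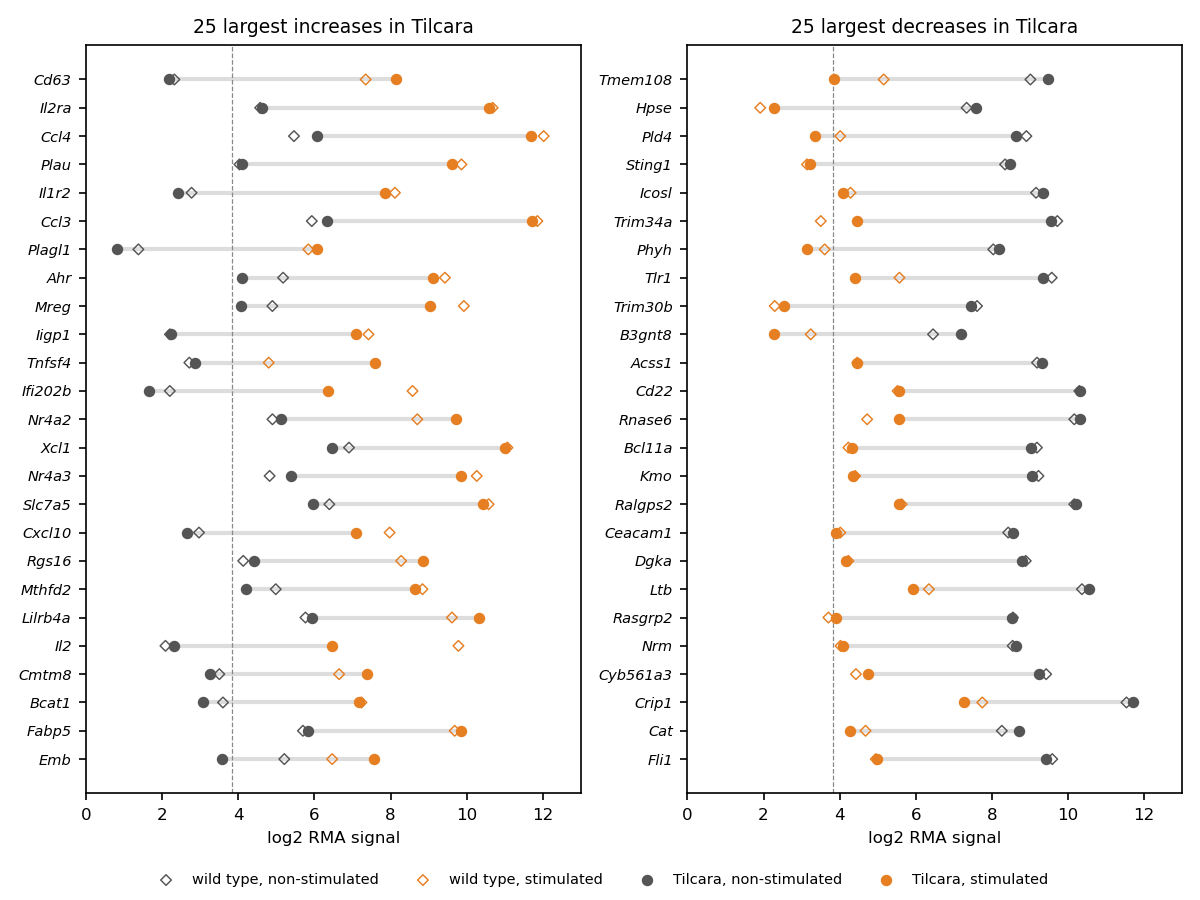
Log2 RMA signal (x axis) of the 25 most increased and the 25 most decreased genes in Tilcara, in all 4 arrays; filled circles are Tilcara, open diamonds wild type, grey non-stimulated and orange stimulated, grey bars the Tilcara difference and the dashed line the floor of 3.83. Predicted genes, small RNAs, olfactory receptors and immunoglobulin or T cell receptor segments are left out. Both stimulated arrays lie on the same side of the non-stimulated ones in each gene. Il2, Ifi202b and Tnfsf4 show the widest gap between the stimulated arrays.

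Genes of the diacylglycerol branch were more often lower than higher after 4 hours. Of 19 measured genes for protein kinases C and D, RasGRPs and diacylglycerol kinases, a list that also holds enzymes phorbol esters do not bind, 2 were higher, 9 lower and 8 in between, with a median of -0.99 against 0.04 over all genes. Prkcb, the main conventional protein kinase C of B cells, read 9.39 without and 7.27 with stimulation in Tilcara and 9.42 and 7.28 in wild type. Rasgrp2 (8.53 to 3.91) and Rasgrp1 (7.78 to 4.10), which load Ras family GTPases, and Dgka (8.80 to 4.17), which removes diacylglycerol, were among the lowest. In wild type each of these 4 genes was lower with stimulation too. Dgkh (4.61 to 7.22) and the atypical kinase Prkci (6.07 to 8.15), which phorbol esters do not bind, were the 2 higher members. Prkca (5.14 and 4.84), Prkcq (3.77 and 3.96) and Prkd3 (6.41 and 6.50) stayed within 0.5.

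Among 18 genes for calcium stores, entry and pumps, 4 were higher and 8 lower. Rcan1, a calcineurin inhibitor that NFAT is known to induce, read 4.76 and 6.90 in Tilcara and 5.03 and 6.42 in wild type. The calcium pump genes went apart, with Atp2a2 from 7.60 to 9.35 and Atp2a3 from 7.83 to 5.43. The inositol trisphosphate receptor genes Itpr2 (7.65 to 5.03) and Itpr3 (7.08 to 4.78) were lower.

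Transcription factor genes of the early response were split by family member. Nr4a2 (5.11 to 9.71), Nr4a3 (5.37 to 9.85) and Nr4a1 (7.73 to 10.56), orphan nuclear receptors used as reporters of antigen receptor signals, were all higher, as were Egr2 (6.81 to 10.54) and Egr3 (6.87 to 9.16). Of the 24 genes in the EGR, NR4A, NFAT and SRF-linked list, 9 were higher and 3 lower. In the AP-1 family 6 of 16 were higher and 5 lower. Fosl2 (4.43 to 8.05), Atf3 (5.27 to 8.34) and Bach1 (4.78 to 7.21) were higher at 4 hours, while the immediate-early genes Fos (7.05 to 4.71) and Fosb (7.55 to 5.17) and also Jund (9.13 to 6.57) were lower. Wild type split the same way in these 6 genes.

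Of 12 NF-kB subunit and IkB genes 1 was higher and 2 lower, near the shares of 11.9% and 14.3% over all genes. Nfkbib (7.58 to 8.63) was the higher gene, Rel, the c-Rel subunit of activated B cells, was just under that at 9.77 and 10.73, and Bcl3 (6.73 to 5.23) and Ikbkb (7.81 to 6.81) were lower. Their median was -0.16 in Tilcara and 0.42 in wild type, and the Tilcara median changes sign (0.04) when arrays are centred on their medians. Of 18 NF-kB signalling and feedback genes 1 was higher and 7 lower, with a median of -0.26. The higher one was Tnfaip3, which encodes the A20 feedback enzyme, at 6.87 and 8.19 in Tilcara and 6.92 and 9.70 in wild type. Traf5 (6.87 to 4.19) and Birc3 (8.69 to 6.81) were among the lower ones.

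Feedback on MAP kinases went both ways within 18 measured genes, with 7 higher and 4 lower. Spry1, a Sprouty inhibitor of Ras signalling, read 4.21 and 7.18, Dusp22 7.19 and 9.65, and Dusp4 5.41 and 7.61 in Tilcara. Dusp6, the ERK phosphatase, was the lowest at 10.25 and 7.30 (wild type 10.04 and 7.29).

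Chemokine and cytokine genes were among the most increased. Ccl4 and Ccl3, chemokines that draw T cells to activated B cells, read 6.06 and 6.33 without and 11.69 and 11.71 with stimulation in Tilcara, 49.3-fold and 41.7-fold higher. Xcl1, a chemokine better known from T and NK cells, read 6.47 and 11.01 (wild type 6.91 and 11.07), and Cxcl10, an interferon-induced ligand of CXCR3, 2.64 and 7.09. Of 16 chemokine genes measured 5 were higher, and Ccl5 (8.81 to 7.73), which also marks NK and T cells, was lower. Of 20 interleukin and growth factor genes, 7 were higher and 1 lower. Ifng read 4.28 and 7.96 (wild type 3.90 and 7.81), Csf1 4.40 and 7.96 (wild type 4.33 and 6.15), and Vegfa 4.37 and 7.38 (wild type 3.69 and 8.23). Il2 and Ifng are textbook T and NK cell cytokines, and in these 2 arrays the T cell marker sum was 222 and 213 and the NK cell marker sum 838 and 673. The NK cell sum includes Tbx21, which was higher with stimulation (4.34 to 8.26), while 6 of the 11 NK cell markers measured were lower. The part of such cells was not tested.

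In some cytokine genes the stimulated Tilcara and wild-type arrays stood far apart. Il2 read 2.30 and 6.47 in Tilcara but 2.08 and 9.78 in wild type. Il10, the regulatory B cell cytokine, read 3.90 and 6.14 in Tilcara but 3.31 and 9.52 in wild type. Both genes were below or near the floor without stimulation in both genotypes, and the Tilcara difference minus the wild-type difference was -3.53 and -3.96. Of 8 TNF family ligands measured 3 were higher and 2 lower in Tilcara. The stimulated Tilcara array was the higher one for Tnfsf4, the OX40 ligand, which read 2.87 and 7.59 in Tilcara and 2.71 and 4.80 in wild type, and for Tnfsf18, the GITR ligand, at 2.06 and 4.96 against 2.19 and 2.36. Tnf read 7.43 and 8.72 in Tilcara and 7.31 and 10.18 in wild type. These gaps rest on 1 array each and were not tested.

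Receptor genes shifted from one set to another. Of 30 cytokine and interferon receptor chains, 8 were higher and 13 lower. Besides Il2ra and Il1r2, Il7r, the interleukin-7 receptor chain, was higher (3.23 to 7.07, wild type 4.20 to 7.26). Il10ra (8.18 to 4.34), Il5ra (6.54 to 2.97) and Il9r (7.76 to 4.78) were lower. Among 14 TNF receptors 4 were higher and 4 lower. Fas, the death receptor of activated cells, read 4.51 and 6.70, and Cd40, the receptor for T cell help, 8.24 and 6.02 (wild type 8.26 and 7.24). In the STAT, JAK and SOCS list (20 genes, 5 higher, 3 lower) Socs1, a feedback inhibitor of cytokine receptors, read 5.35 and 7.38 and Stat3 7.64 and 9.18, while Stat5b was lower (6.45 to 4.78). Cish, another feedback inhibitor, read 4.41 and 5.76 in Tilcara and 4.07 and 8.07 in wild type.

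Among 34 costimulators, checkpoint ligands and adhesion molecules, 8 were higher and 8 lower. Cd86, the ligand of CD28, read 7.09 and 9.73 in Tilcara and 7.05 and 9.61 in wild type. Sema7a (5.07 to 8.64) and the transferrin receptor Tfrc (7.28 to 9.88) were also higher. Hvcn1, the voltage-gated proton channel (8.87 to 4.95), and the SLAM family member Cd48 (9.44 to 6.14) were lower besides Icosl. Homing and egress receptors (24 genes) gave 4 higher and 10 lower. S1pr1, which guides lymphocytes out of lymphoid tissue, read 8.66 and 4.84, Itga4, the alpha 4 integrin, 8.78 and 5.62, and Selplg, the P-selectin ligand, 7.89 and 4.84. Ccr7, the receptor for T zone chemokines, was within 0.5. Of 14 tetraspanins 3 were higher, with Tspan3 (5.06 to 7.45) next to Cd63, and 5 lower, with Tspan32 (7.996 to 3.92), Cd37 (10.02 to 7.29) and Cd81 (9.99 to 7.64).

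The antigen receptor complex was among the lowest of the gene lists. Of 24 genes for the receptor complex and its coreceptors, 17 were lower and 1 higher, with a median of -2.52 in Tilcara and -2.48 in wild type. Cd22, the sialic acid-binding inhibitory coreceptor, read 10.33 without and 5.57 with stimulation in Tilcara and 10.30 and 5.52 in wild type, 27.1-fold lower. Cd79a and Cd79b, the signalling chains of the receptor, read 10.95 and 8.49, and 11.23 and 8.57. Wild-type Cd79b went further, from 11.39 to 6.96. The higher gene was Lilrb4a, an inhibitory immunoglobulin-like receptor (5.94 to 10.32, wild type 5.76 to 9.61). Of 41 proximal kinases, phosphatases and adaptors, 22 were lower, among them Syk (8.07 to 4.10), the kinase at the receptor, Ptpn6 (10.02 to 6.50), the SHP-1 phosphatase, Pik3cg (7.94 to 3.81) and Dapp1 (7.44 to 3.69). Ptpn22 (6.64 to 10.40) and the Src family kinase Fyn (6.39 to 9.47) were higher. In wild type these 6 genes changed at least 2-fold in the same directions.

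Of 19 genes of antigen presentation by MHC class II 12 were lower and 0 higher by at least 2-fold, with a median of -1.69. H2-Aa (11.23 and 11.02) and H2-Eb1 (10.82 and 10.60), chains of the surface molecules, stayed within 0.5 in Tilcara. H2-DMb1 (8.43 to 4.37), H2-DMa (10.43 to 6.94) and H2-Oa (10.34 to 6.84), which load and edit peptides, and Ciita, the class II transactivator (8.66 to 5.08), were lower.

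Of 29 B lineage factors 4 were higher and 10 lower. Pax5, which maintains B cell identity, read 8.94 and 5.82, Ets1 8.92 and 5.14, and Spib 9.67 and 5.81 in Tilcara. Irf4, a factor of activated B and plasma cells, read 8.21 and 10.28, Myb 6.08 and 8.27, and Gfi1 5.32 and 7.48. Ebf1 differed by -0.55 and the germinal centre factor Bcl6 by -0.35. Prdm1, the plasma cell regulator, read 3.93 and 5.19, while the plasma cell chaperone Mzb1 was lower (8.92 to 5.89) and Xbp1 (6.35 and 6.29) close to level. Tbx21, which encodes T-bet, read 4.34 and 8.26 in Tilcara and 5.19 and 8.96 in wild type. It is also an NK and T cell gene, and of the 11 NK cell markers measured it was the 1 that was higher, with 6 lower, among them Klrd1 (6.04 to 3.55) and Gzma (5.67 to 3.55).

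Genes that hold lymphocytes in quiescence were lower as a group. Of 35 measured 24 were lower and 1 higher (Il7r), with a median of -1.61 in Tilcara and -1.56 in wild type. Txnip, which restrains glucose uptake, read 10.27 and 6.57, Klf2, a quiescence factor that maintains S1pr1, 7.81 and 4.29, Cdkn1b, the p27 inhibitor, 8.72 and 5.20, and Rbl2, the p130 pocket protein, 6.95 and 3.55. All 8 lymphocyte GTPases of the GIMAP family were below 0, but only 3 by at least 1, led by Gimap7 (8.27 to 4.13).

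**Figure D3:**
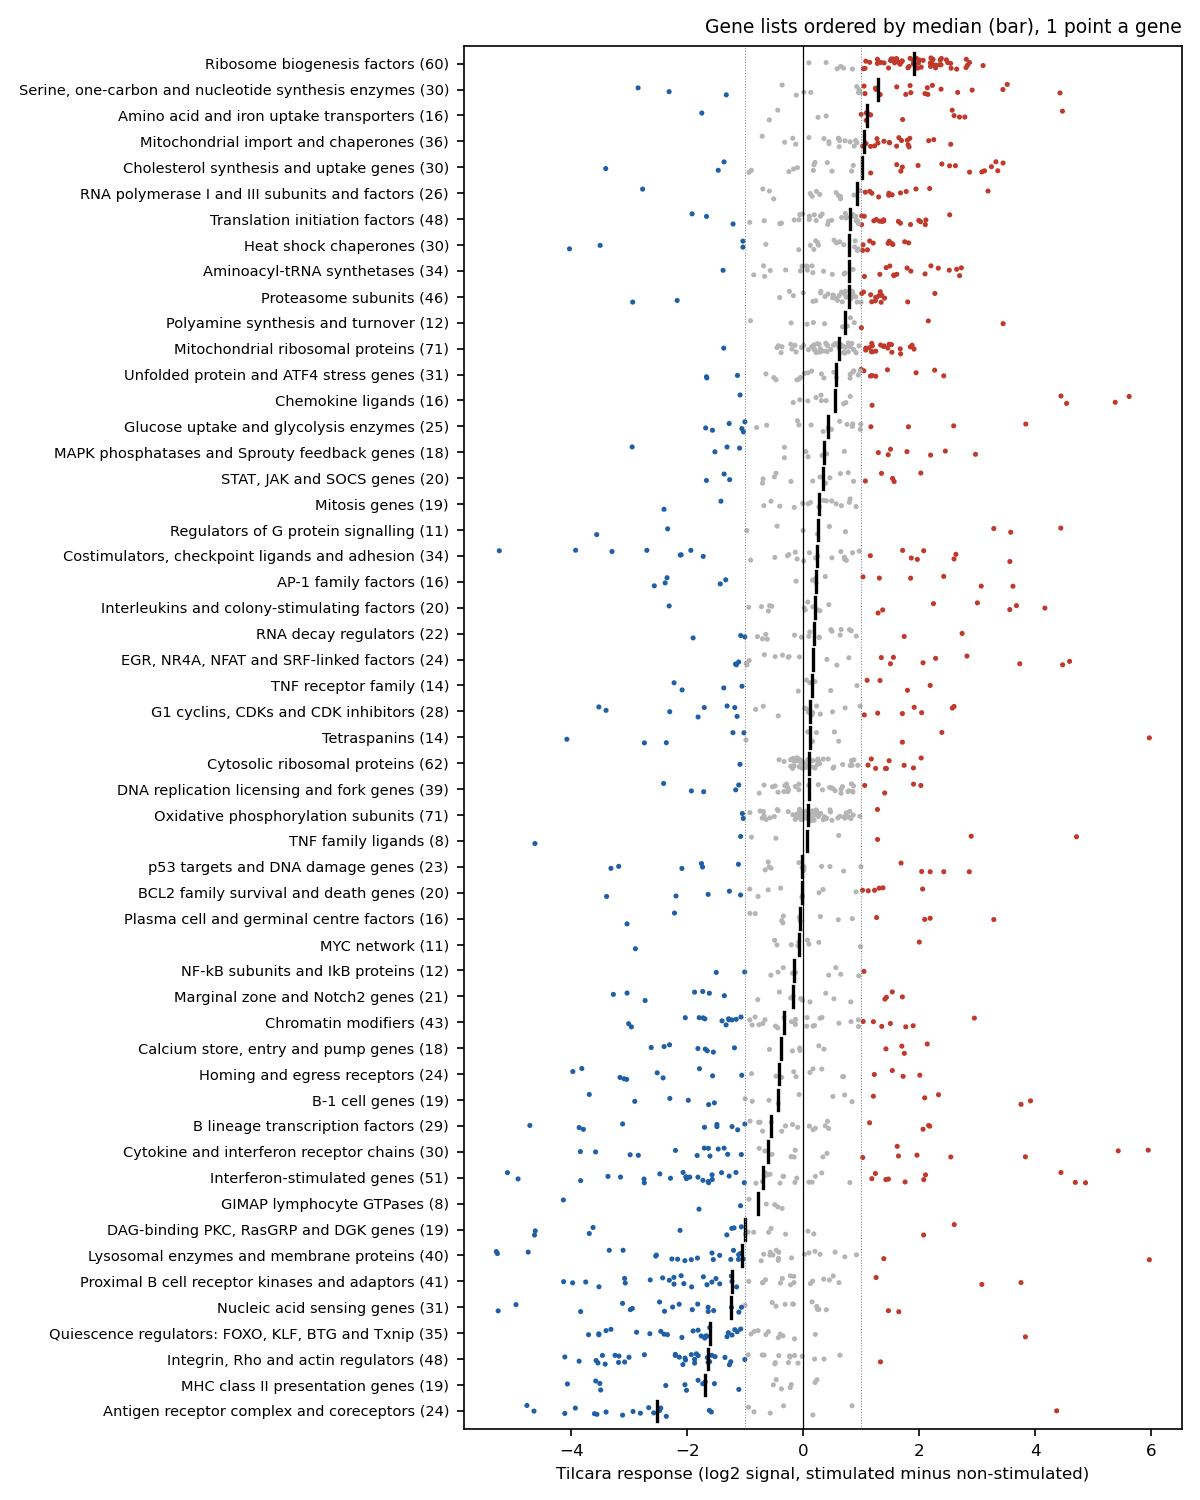
Tilcara difference (x axis, log2 signal, stimulated minus non-stimulated) of the genes in each list shown, with the number of measured genes in brackets; red points are at least 2-fold higher, blue at least 2-fold lower, and black bars are list medians. Medians run from 1.92 for ribosome biogenesis factors to -2.52 for the antigen receptor complex. The list of NF-kB signalling and feedback genes is not among those shown.

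Growth genes formed the opposite end of the range. Of 60 ribosome biogenesis factors, which make and fold ribosomal RNA in the nucleolus, 54 were at least 2-fold higher and 0 lower, with a median of 1.92 (wild type 2.12) and all 60 above 0. Rrp1b read 4.50 without and 7.60 with stimulation in Tilcara and 4.90 and 7.98 in wild type. Nolc1 (6.36 to 9.23), Rcl1 (5.35 to 8.19), Noc4l (6.25 to 9.07) and Nop2 (6.15 to 8.96) followed. Their spread was narrow beside the secreted genes, from 0.10 to 3.10. The 62 cytosolic ribosomal protein genes stayed near level, with a median of 0.11 that changes sign (-0.05) after cyclic loess, 9 higher and 1 lower.

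Of 26 genes for RNA polymerases I and III, 12 were higher and 1 lower. Polr1b, a core subunit of polymerase I, read 5.17 and 8.36. The paired polymerase III subunits moved apart: Polr3g, known from proliferating and stem cells, went from 5.43 to 7.11 and its relative Polr3gl from 6.38 to 3.61, with wild type at 4.89 to 7.42 and 6.38 to 4.00. Myc, the growth regulator that drives many of these genes in lymphocytes, read 8.75 and 10.75, and its antagonist Mxd4 6.54 and 3.65. The other 9 of the 11 MYC network genes differed by less than 1. Of 48 translation initiation factors 17 were higher, including the cap-binding Eif4e (7.18 to 9.18) and its inhibitor Eif4ebp1 (6.01 to 8.54), and 3 lower, including the kinase Eif2ak2 (5.80 to 3.89).

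Aminoacyl-tRNA synthetases split by compartment, a split made after the values were seen. Of 18 that charge tRNAs in the cytosol, 15 were higher and 0 lower, with a median of 1.71. Of 16 mitochondrial ones 1 was higher and 1 lower, with a median of 0.07. Cars read 5.53 and 8.26, Iars 6.78 and 9.48, and Yars 5.37 and 8.02 in Tilcara. Genes for mitochondrial import and chaperones were higher in 19 of 36 (median 1.06), such as Timm50 (6.04 to 8.59), and mitochondrial ribosomal proteins in 20 of 71 (median 0.62). Oxidative phosphorylation subunits stayed level, with 1 of 71 higher and 2 lower.

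**Figure D4:**
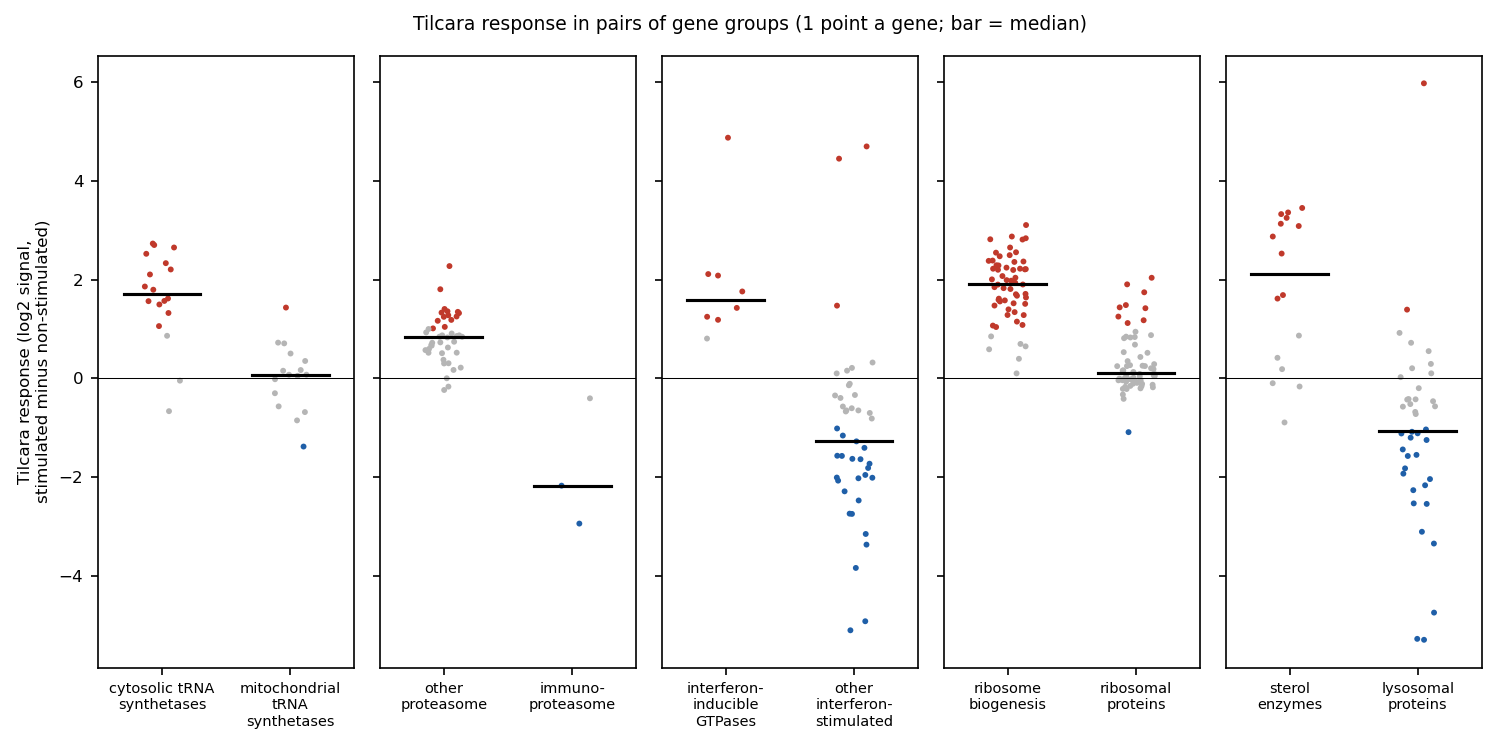
Tilcara difference (y axis, log2 signal) in 5 pairs of gene groups, 1 point a gene, bar at the median; red is at least 2-fold higher and blue at least 2-fold lower. Medians are 1.71 and 0.07 for cytosolic and mitochondrial tRNA synthetases, 0.84 and -2.17 for other and immunoproteasome subunits, 1.59 and -1.27 for interferon-inducible GTPases and other interferon-stimulated genes, 1.92 and 0.11 for ribosome biogenesis factors and ribosomal proteins, and 2.11 and -1.06 for sterol enzymes and lysosomal proteins.

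Biosynthetic enzymes followed. Of 30 serine, one-carbon and nucleotide genes 19 were higher and 3 lower, with a median of 1.29. Mthfd2, the mitochondrial folate enzyme of activated lymphocytes, read 4.20 and 8.63 (wild type 4.98 and 8.84), Psat1, in serine synthesis, 5.08 and 8.60, and Shmt2 6.82 and 9.74. The 2 CTP synthetase genes went apart, with Ctps, the form lymphocytes depend on, from 5.49 to 8.94 and Ctps2 from 6.66 to 3.81. Of 16 amino acid and iron transporters 11 were higher, led by Slc7a5, the leucine transporter (5.95 to 10.42, wild type 6.39 to 10.58), and Slc7a1 (6.45 to 9.15). Polyamine synthesis was higher at Srm (6.64 to 10.09) and at Odc1 (6.61 to 8.77), its rate-limiting enzyme. Of 25 glucose uptake and glycolysis genes 4 were higher and 6 lower: the lactate transporter Slc16a1 read 4.15 and 7.99 and hexokinase Hk2 3.88 and 6.48, while Pdk1 (5.80 to 4.12) and Slc2a3 (5.08 to 3.80) were lower.

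Of 30 cholesterol synthesis and uptake genes 15 were higher and 3 lower, with a median of 1.02. Within them, 16 enzymes of the sterol pathway, grouped after the values were seen, gave 10 higher and 0 lower. Sqle, squalene epoxidase, read 6.37 and 9.82 in Tilcara and 6.16 and 9.77 in wild type, and Cyp51 (5.98 to 9.34), Fdft1 (5.63 to 8.95) and Msmo1 (5.28 to 8.53) lay close to it. Mylip, which degrades the LDL receptor, was lower at 8.71 and 5.31. Lysosomal genes ran the other way, with 21 of 40 lower and 2 higher, a median of -1.06. Besides Pld4 these were Hpse (7.57 to 2.28), a heparan sulfate-cleaving enzyme, Rnase6 (10.31 to 5.57) and the acid lipase Lipa (7.03 to 3.92).

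Proteasome genes were higher in 14 of 46, with 2 lower. Both lower ones were inducible catalytic subunits of the immunoproteasome, Psmb10 (8.86 to 5.93) and Psmb8 (8.14 to 5.97), while the remaining subunit of that kind, Psmb9, differed by -0.40. Without these 3 and the thymus form Psmb11 (3.51 and 3.94), which was named after its value was seen, 42 genes were left, a group drawn after the values were seen, of which 14 were higher and 0 lower, such as Psme3 (6.59 to 8.40). Of 30 heat shock chaperones 11 were higher, led by the chaperonin subunit Cct3 (6.94 to 8.76), and 4 lower. The near-identical paralogs Hspa1b (10.71 to 6.68) and Hspa1a (9.60 to 6.10), whose signals may not be separable, were at -4.03 and -3.50 in Tilcara. In wild type they read 9.15 and 8.48, and 7.79 and 7.89, so that the non-stimulated Tilcara array was the highest of the 4 for both. In the unfolded protein and ATF4 list 9 of 31 were higher and 3 lower, with Sesn2 (2.97 to 5.40), Asns (3.99 to 6.25) and Chac1 (4.11 to 6.06), genes of the amino acid response, ahead.

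Promoters of these groups were searched for short motifs known from the factors involved, in the 250 bases before and 50 after the start. RefSeq promoters (GRCm38.p6) were matched by symbol for 9738 of the 12456 genes. The amino acid response element bound by ATF4 was written as TGATGNAA and searched on both strands. It lay in 2.37% of the 9738 promoters, in 2.56% of those at least 2-fold higher and in 2.64% of those lower. It was held by 4 of 25 tRNA synthetase promoters and by 5 of 28 in the unfolded protein and ATF4 list, but also by 4 of 36 lysosomal promoters. Of those lysosomal genes, Pld4 (-5.27), Smpd1 (-1.93) and Manba (-1.25) were at least 2-fold lower, and Ctsl differed by 0.21. In the unfolded protein and ATF4 list, Herpud1 (-0.64) and Fgf21 (-0.11) held the element and were not higher. The 7 genes of these lists that held it and were at least 2-fold higher are shown in windows of 30 bases. They are shown because the element stands near the start in most of them. The match is in capitals, 5′ to 3′ along the gene.
Iars, chr13:49682126-49682155, plus strand: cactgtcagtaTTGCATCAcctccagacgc
Yars, chr4:129189895-129189924, plus strand: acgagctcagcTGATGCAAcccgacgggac
Tars, chr15:11399655-11399684, minus strand: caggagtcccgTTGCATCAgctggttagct
Gars, chr6:55037960-55037989, plus strand: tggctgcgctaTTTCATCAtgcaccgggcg
Asns, chr6:7693214-7693243, minus strand: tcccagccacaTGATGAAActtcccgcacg
Chac1, chr2:119351038-119351067, plus strand: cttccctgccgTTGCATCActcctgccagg
Trib3, chr2:152344028-152344057, minus strand: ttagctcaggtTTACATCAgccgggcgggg
The Tilcara differences of these genes were 2.70, 2.65, 2.52, 2.33, 2.27, 1.95 and 1.46 in the order shown. The match began within 30 bases of the start in 6 of them and 193 bases before it in Chac1.

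The E-box CACGTG, a palindrome that MYC and MAX, USF and other factors bind, lay in 10.2% of all promoters, in 16.4% of those at least 2-fold higher and in 8.93% of those lower. Of 53 ribosome biogenesis promoters 12 held it (22.6%), but so did 9 of 36 lysosomal promoters. Of those 9 lysosomal genes, Sgsh (-1.20) and Ctsd (-1.03) were at least 2-fold lower. The others lay between -0.57 (Mcoln1) and 0.92 (Mcoln2). The 3 ribosome biogenesis genes with the largest differences among those with the motif are shown. Utp4 and Rpf2 are outside the rule for named genes and were chosen for it after their values were seen.
Nop2, chr6:125131811-125131840, plus strand: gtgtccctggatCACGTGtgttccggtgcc
Utp4, chr8:106893643-106893672, plus strand: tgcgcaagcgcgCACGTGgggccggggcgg
Rpf2, chr10:40246990-40247019, minus strand: ggaagtaatcggtaCACGTGcattcgctaa
Their Tilcara differences were 2.81, 2.55 and 2.49. A kB pattern written as GGGNNTTNC lay in 17.1% of all promoters, 18.6% of the higher and 17.9% of the lower ones, in 6 of 11 chemokine promoters, in 8 of 22 of the cytokine and interferon receptors and in 11 of 39 of the interferon-stimulated genes. Of the 6 chemokine genes with it 3 were at least 2-fold higher and 3 differed by less. Of the 8 receptor genes with it only Il2ra was at least 2-fold higher. Il9r (-2.98), Ifngr2 (-2.84), Il4ra (-2.20) and Il21r (-1.61) were at least 2-fold lower. The interferon-stimulated genes with it ran from -4.91 (Trim30b) to 4.45 (Cxcl10). The kB pattern is shown for Il2ra and Cxcl10, where the match shown began 200 and 103 bases before the start. The Cxcl10 promoter held 2 matches, and only 1 of them is shown.
Il2ra, chr2:11642581-11642610, plus strand: tgccgcggcagGGAATCCCCctttccttgt
Cxcl10, chr5:92348974-92349003, minus strand: tcggtttacagGGGACTTCCctcgggttgc
The AP-1 pattern TGANTCA lay in 5.17% of all promoters, 4.78% of the higher and 5.43% of the lower ones. It was held by 3 of 11 chemokine promoters and by 10 of 39 of the interferon-stimulated genes. The latter ran from -2.29 (Xaf1) to 4.45 (Cxcl10). The CRE pattern TGACGTCA lay in 3.22% of all promoters, the serum response pattern CNTATNAGG in 1.25% and the sterol response pattern TCACNCCAC in 1.09%. In the higher ones these shares were 2.73%, 1.62% and 0.939%, and in the lower ones 2%, 1.29% and 1%. A match is a description of these letters and no measure of binding.

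Of 478 named microRNA genes 161 reached the floor, 27 at least 2-fold higher and 15 lower. Over all genes the shares were 11.9% and 14.3%, and the median of the 161 microRNA genes was 0.09 against 0.04 over all genes. The genes named here were chosen after their values were seen, and whether a probe set reads the hairpin or its host transcript was not tested. Mir17, Mir18, Mir19a and Mir20a lie within 593 bases of chromosome 14 (chr14:115043671-115044263), in the cluster known for promoting lymphocyte growth and survival. All 4 were higher: Mir17 read 7.71 and 9.93 in Tilcara (wild type 7.86 and 10.27), Mir18 7.05 and 9.47, Mir19a 2.67 and 6.25, and Mir20a 6.21 and 9.38. Mir146, whose product restrains NF-kB signalling, read 1.48 and 5.28 (wild type 2.12 and 6.19) and Mir363 1.66 and 5.32. Mir142, a haematopoietic microRNA gene, was lower at 8.25 and 6.47. The mature RefSeq sequences show which of them share a seed, bases 2 to 8, in capitals.
mmu-miR-17-5p: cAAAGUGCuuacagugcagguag
mmu-miR-20a-5p: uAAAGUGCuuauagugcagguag
mmu-miR-18a-5p: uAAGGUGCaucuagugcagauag
mmu-miR-19a-3p: uGUGCAAAucuaugcaaaacuga
mmu-miR-146a-5p: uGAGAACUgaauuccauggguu
mmu-miR-363-3p: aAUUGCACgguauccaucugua
mmu-miR-142a-3p: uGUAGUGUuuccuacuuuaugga
Of these 7, miR-17-5p and miR-20a-5p carry the same seed, AAAGUGC, and the others have seeds of their own. Small nucleolar RNA genes, which guide ribosomal RNA modification, were higher in 26 of 72 and lower in 3, with a median of 0.74.

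**Figure D5:**
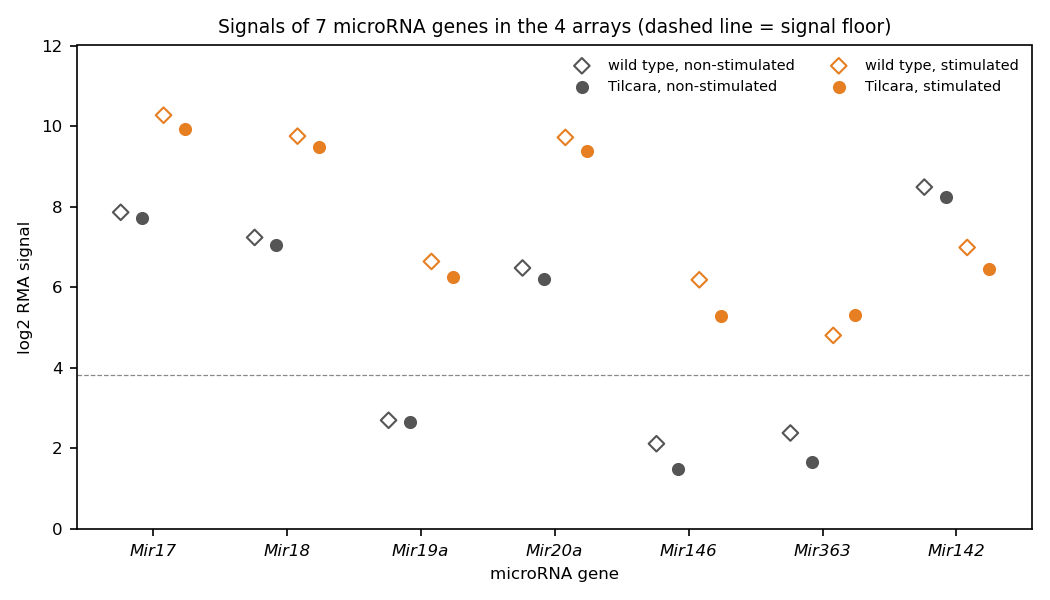
Log2 RMA signal (y axis) of 7 microRNA genes in the 4 arrays; circles are Tilcara, diamonds wild type, grey non-stimulated and orange stimulated, and the dashed line is the floor of 3.83. The 4 clustered genes, Mir146 and Mir363 are higher and Mir142 lower in both stimulated arrays.

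Among cell cycle genes, Ccnd2, the D cyclin of B cells, read 6.80 and 9.40, Cdk6 6.49 and 9.06, and the inhibitor gene Cdkn1a 4.88 and 6.93. Of 28 genes of the G1 list 7 were higher and 8 lower, the lower ones led by Cdkn1b, Rbl2 and Cdkn2d (6.39 to 4.10). In the replication list 4 of 39 were higher, with Mcm6 (6.49 to 8.52) ahead, and 5 lower, with Pold1 (7.21 to 4.80) lowest, near the shares of 11.9% and 14.3% over all genes. Of 19 mitosis genes 2 were lower and 0 higher by 2-fold or more. Survival genes were mixed, with 6 of 20 higher and 5 lower. Bcl2, the survival factor of resting lymphocytes, read 8.88 and 5.49, Bcl2a1a, whose near-identical relatives may share its signal, 7.31 and 8.62, and the pro-apoptotic Bcl2l11 5.95 and 8.01.

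Interferon-stimulated genes split into 2 groups, drawn after the values were seen. Of 8 interferon-inducible GTPases, which attack vacuoles of intracellular pathogens, 7 were higher and 0 lower, with a median of 1.59, led by Iigp1 (2.23 to 7.10, wild type 2.20 to 7.42). Of the other 43 measured, 3 were higher and 24 lower, with a median of -1.27. Trim34a (9.56 to 4.46), Trim30b (7.44 to 2.53) and Ddx58, the RIG-I sensor (7.90 to 4.06), were lowest, and Ifi202b (1.65 to 6.35, wild type 2.20 to 8.58) was highest. Isg15 (5.30 and 5.40) stayed level. In the nucleic acid sensing list 18 of 31 were lower and 2 higher. Of 7 toll-like receptor genes, a group also drawn after the values were seen, 6 were lower by at least 1, with Tlr1 (9.35 to 4.40) lowest. Irak3 (6.66 to 3.71) and Unc93b1, which carries endosomal toll-like receptors (9.95 to 6.97), were lower too.

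The cytoskeleton list was lower in 32 of 48 genes and higher in 1, with a median of -1.64. Coro1a, an actin regulator of lymphocytes, read 9.84 and 5.97 in Tilcara and 9.84 and 6.19 in wild type, and Arhgap45 8.85 and 4.74, Lsp1 10.02 and 6.45, and Dock8 8.77 and 5.35. Rhoa (11.53 and 11.51) and Pfn1 (10.33 and 10.24) stayed within 0.5. Chromatin modifiers gave 7 of 43 higher and 13 lower. Kdm6b, a demethylase of histone H3 lysine 27, read 6.97 and 9.93, Dnmt3b 4.92 and 6.82, the remodeller Smarca2 7.18 and 4.22 and the linker histone H1f2 7.69 and 4.68. G protein regulators included some of the larger increases, Rgs16 (4.41 to 8.85), Rgs1 (4.65 to 8.23) and Rgs13 (4.17 to 7.46), and Rgs18 was lower (5.74 to 2.19). Of 22 RNA decay genes 17 differed by less than 1, and Zc3h12c (5.36 to 8.10) was highest.

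Most of the Tilcara response was also present in wild type, where 1666 genes (13.4%) reached a difference of 1 upward and 1979 (15.9%) downward. Of the 1481 genes higher in Tilcara, 1204 were at least 2-fold higher in wild type, 203 differed by 0.5 to 1 and 51 by less than 0.5 in the same direction, and 23 went the other way. Of the 1783 lower genes the counts were 1487, 233, 51 and 12. The arrays were normalised together and each response rests on 1 pair, so these counts carry no test of a difference between genotypes.

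Where the responses differed most, some genes differed already without stimulation. S100a8 (3.81 to 2.36 in Tilcara, 9.004 to 2.75 in wild type) and the kallikrein Klk1 (6.41 to 2.09 in Tilcara, 2.75 to 2.17 in wild type) had a wide gap between genotypes at rest and stimulated signals below the floor in both. S100a8 is on the list of neutrophil markers and Klk1 on that of dendritic cell markers. Other genes differed with stimulation. Batf, an AP-1 factor of activated lymphocytes, read 5.63 and 6.94 in Tilcara and 5.89 and 9.72 in wild type. Mef2c, a B cell survival factor downstream of the receptor, read 10.25 and 9.14 in Tilcara and 10.31 and 6.66 in wild type, and Dennd5b 7.83 and 5.71 against 7.81 and 2.82. Coro2a was lower in Tilcara (6.98 to 5.33) and higher in wild type (6.79 to 7.52).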

How the data were processed

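The values analysed are log2 RMA signals per probe set that the authors deposited, 4 arrays with 1 sample each, and RMA is named per the submitters' processing notes, without its software, version or annotation. RMA, by its design, subtracts background and gives every array the same distribution, so a shift of total RNA between samples is not visible. Probe sets (41345) were named from the platform annotation: 23521 had 1 symbol, 1814 several and 16010 none, and 23328 of the first had gene IDs in RefSeq, with 0 symbols changed. The brightest probe set by the mean of the 4 arrays stood for a gene (847 genes used had several), and genes reaching the floor of 3.83 on 1 array were kept. Differences were computed in Python 3.11.15 with pandas 2.3.3, and cyclic loess in R 4.3.3 with limma 3.58.1. The scripts were tested on simulated data. Named genes are the 25 largest increases and decreases, up to 6 members a list with the largest differences and up to 3 near 0, the protein kinase C genes, members of lists of other cells past 2-fold, and the 8 largest differences of response each way. Predicted genes, small RNAs, olfactory receptors and immunoglobulin or T cell receptor segments were left out before the 25 and the 8 largest were taken. Ighm, Ebf1 and Csf1r were named as markers after their values were seen. The members and lists were chosen with earlier results of these data known.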

Additional observations from a re-analysis of the deposited data

Results flagged for a closer look

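A gene and several lists had Tilcara and wild-type differences of opposite sign, each from 1 pair of arrays, and none of these differences between genotypes was tested. Mir1951 was the 1 gene at least 2-fold lower in Tilcara (3.89 to 2.87, -1.01) and at least 2-fold higher in wild type (2.90 to 4.39, 1.49), with all of these signals near the floor. Medians differed in sign for NF-kB subunits and IkB proteins (-0.16 in Tilcara, 0.42 in wild type), tetraspanins (0.12 and -0.23), regulators of G protein signalling (0.25 and -0.17), thymocyte markers (0.11 and -1.24, 3 genes) and macrophage and monocyte markers (0.27 and -0.23).

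Probe sets with no symbol or with several were left out of the comparison. Of 9915 such probe sets above the floor, 1465 (14.8%) were at least 2-fold higher in stimulated Tilcara cells and 1312 (13.2%) lower.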

How the results depend on the processing

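The counts of genes stayed within 1.5 times of 1481 higher and 1783 lower under the other floors, the other scalings, the mean over probe sets and without genes of the other cell types. They moved with the size of difference counted: 2765 higher and 2833 lower at 1.5-fold, and 339 and 609 at 4-fold. Without a floor the chemokine median became 0.20 and that of cytokine receptors -0.14. With the floor set on the Tilcara arrays alone the medians were 1.28 for TNF ligands, -0.53 for thymocyte, -1.62 for neutrophil and 0.36 for erythroid markers; with both Tilcara arrays above it they were -1.08 for TNF ligands and -0.53 for thymocyte markers. The list medians and named genes moved by less than 0.329 under both other scalings, while 19 named values moved with the mean over probe sets, among them Taf1d from 0.16 to 1.30. No paired analysis was possible because the groups compared share only 1 replicate number. Signals near the floor of 3.83 limit folds of dim genes.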
